A study of Mus musculus with 70 samples.

Results

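The potassium channel genes of the mouse hippocampus are described here. They are all listed genes whose symbol follows the Kcn pattern (Kcn, letters and a number), other than Kcnj13, which also serves as a choroid plexus marker. The rule found 77 of the 14260 listed genes and used no measured value. They were sorted into 16 subfamilies by channel type. The largest were the inward rectifiers (Kir, 11 genes), the two-pore channels (K2P, 9) and the silent voltage-gated subunits (9). These were followed by the EAG, ERG and ELK channels (7), the Kv1 channels (6), and 4 genes each of Kv3, Kv7, the large-conductance calcium-activated channel (BK) and the KChIP proteins. The Kv4 channels, the Kv beta subunits, the small-conductance calcium-activated channels (SK), the sodium-activated channels SLACK and SLICK with SLO3, and non-coding genes had 3 each. Kv2 channels and KCNE subunits had 2 each.

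RNA came from the hippocampus of 1 hemibrain per mouse. The TG animals carried the APP23 transgene (strain B6.Cg-Tg(Thy1-APP)3Somm/J), in which the Thy1 promoter drives human APP in neurons, and the NTG animals were littermates without the transgene. TRF animals had food for 6 h a day, from Zeitgeber time (ZT) 15 to ZT21, begun when they were 6 to 9 months old, and ALF animals fed freely. All were housed singly under 12 h of light and 12 h of dark, with lights on at ZT0 and off at ZT12, and were 10 to 13 months old when killed. The 69 animals were 18 TG on TRF, 19 TG on ALF, 16 NTG on TRF and 16 NTG on ALF, with 25 killed at ZT0, 11 killed at ZT6, 23 killed at ZT12 and 10 killed at ZT18. The sex of single animals was not given. The study asks whether restricting the feeding window alters gene expression in the brain of these amyloid-bearing mice.

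Potassium channels let potassium ions leave or enter the cell and set the resting potential, the shape of the action potential and the rate of firing. Voltage-gated channels (Kv) assemble from pore-forming subunits, silent subunits that reach the membrane only in mixed channels, and auxiliary proteins. Inward rectifiers and two-pore channels carry the resting conductance, in astrocytes and microglia as well as neurons, and calcium-activated channels respond to the calcium that enters during firing.

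Promoters of 3 genes are shown because they carry the contrasts described next: Kcnk13 was lower at ZT12 and on TRF, Kcnj4 differed over the day in the other direction, and Kcnh4 had the largest ZT12 difference among the called genes. Each runs from 250 bases before to 50 bases after the annotated start, 5′ to 3′ on the gene's strand (RefSeq, GRCm38.p6). Capitals mark the E-box CACGTG, which clock proteins can bind, and the GC box GGGCGG or its complement CCGCCC. The Kcnk13 stretch is chr12:99964249-99964548 on the plus strand, the Kcnj4 stretch chr15:79505192-79505491 on the minus strand and the Kcnh4 stretch chr11:100759729-100760028 on the minus strand.
Kcnk13: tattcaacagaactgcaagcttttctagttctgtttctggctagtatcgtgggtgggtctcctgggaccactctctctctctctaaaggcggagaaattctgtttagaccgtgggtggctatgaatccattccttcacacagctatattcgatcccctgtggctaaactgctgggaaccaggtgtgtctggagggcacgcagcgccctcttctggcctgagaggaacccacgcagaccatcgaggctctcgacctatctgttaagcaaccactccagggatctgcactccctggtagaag
Kcnj4: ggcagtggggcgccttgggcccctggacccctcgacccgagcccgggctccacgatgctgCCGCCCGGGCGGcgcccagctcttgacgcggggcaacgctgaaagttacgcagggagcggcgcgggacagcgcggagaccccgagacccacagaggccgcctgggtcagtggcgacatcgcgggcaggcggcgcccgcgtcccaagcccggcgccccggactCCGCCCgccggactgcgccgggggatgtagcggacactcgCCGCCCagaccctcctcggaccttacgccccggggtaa
Kcnh4: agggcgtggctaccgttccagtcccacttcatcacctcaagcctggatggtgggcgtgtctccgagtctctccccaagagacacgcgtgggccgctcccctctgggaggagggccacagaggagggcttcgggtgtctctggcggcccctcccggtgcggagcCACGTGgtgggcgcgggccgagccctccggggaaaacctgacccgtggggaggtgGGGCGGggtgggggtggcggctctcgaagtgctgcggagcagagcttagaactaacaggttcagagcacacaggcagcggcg
The Kcnk13 stretch held none of these letters and had 52.7% G or C, the Kcnj4 stretch held 4 GC boxes at 76.0% G or C, and the Kcnh4 stretch held 1 E-box and 1 GC box at 68.7%.

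Promoters were listed for 55 of the 77 genes, 79 promoters in all. An E-box on either strand was present in 3 of the 55 (5.45%, Kcnab1, Kcnh4 and Kcnj2), against 11.5% of the 11019 listed genes with a promoter. Of the 16 genes with a listed promoter that were called over the day, only Kcnh4 had one. None of the 55 had a D-box (TTATGTAA, TTACATAA or TTACGTAA; 0.917% of listed genes) or a full cyclic AMP element (TGACGTCA; 3.46%). A CCAAT box, either strand, was present in 22 (40% against 42.5%) and a GC box in 37 (67.3% against 68.2%). These are matches of letters in a short window and not measured binding sites.

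The labels were checked first. Thy1, whose promoter drives the transgene, ran from 101986 to 171318 normalized counts in TG animals (median 135911, n = 37) and from 14727 to 29068 in NTG animals (median 25121, n = 32), with no overlap. All 10 listed genes of the clock passed the test over the times of sacrifice. Sequencing depth over the listed genes, estimated from the step between values, was 27.9 to 47.1 M reads per library (median 37.2 M). In 5 libraries the median correlation with the other libraries was low, at 0.940 for NTG_ALF_107, 0.952 for NTG_ALF_1, 0.966 for TG_ALF_16, 0.967 for TG_ALF_5 and 0.970 for TG_TRF_104, named by group and animal number, against 0.972 to 0.985 in the rest. The first 4 were killed at ZT0 and the last at ZT12. Animal NTG_ALF_107 was the highest of all animals in 20 of the 77 genes, and NTG_ALF_1 in 9, so calls lost without these libraries are given with the value without them. Animal NTG_ALF_325, killed at ZT18, was the highest in 9 genes and the lowest in 7, although its median correlation was 0.975, and it had the highest summed myelin markers of all animals (408748).

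Levels spanned a wide range and were typical of the table as a whole. Mean normalized counts ran from 52.2 to 23912. No listed gene of the whole table had a mean below 40.9. Not every gene of a subfamily is listed (9 of 14 K2P and 2 of 6 KCNE genes were), so the lowest members below are the lowest listed. Per kilobase of annotated exon, the median of the 77 genes was 213 normalized counts, against 212 over all listed genes of known length, and 38 of the 77 lay below that value. Levels between genes are compared per kilobase throughout this account, and differences between animals on the normalized counts.

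Among the voltage-gated channels, the Kv3 subunits, which allow fast firing, had the highest subfamily median (692 per kb), with Kcnc2 lowest at 657. Kv1 subunits, found along axons, ran from 1596 per kb for Kcna1 to 33.0 for Kcna5 (median 394). Kcnd2, the A-type channel of pyramidal cell dendrites, stood at 811 per kb and Kcnd1 at 41.2. Kcnb2, a delayed rectifier subunit, stood at 30.2 per kb. In the EAG, ERG and ELK group the range was 537 for Kcnh3, an ELK channel, to 24.1 for Kcnh6, an ERG channel. Silent subunits ran from 675 per kb for Kcnf1 to 42.8 for Kcng3.

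The auxiliary subunit Kcnab2, a Kv beta protein that binds Kv1 channels, had the highest level of all (4287 per kb), and Kcnab3 the lowest of its subfamily (312.9). KChIP proteins, which bind calcium and Kv4 channels, ran from 1181 per kb for Kcnip3 to 113 for Kcnip1. Of the other subunits, Kcne2 stood at 257 per kb and Kcne1l at 98.5.

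Two-pore channels ran from 1444 per kb for Kcnk1 (TWIK-1) to 23.4 for Kcnk10 (TREK-2). The inward rectifiers ran from 1251 for Kcnj10, the Kir4.1 channel of astrocytes, to 29.7 for Kcnj14, and Kcnj4, the Kir2.3 channel of forebrain neurons, was at 1120. Calcium-activated channels were lower. The BK pore Kcnma1 stood at 226 per kb and its subunit Kcnmb1, best known from smooth muscle, at 14.8, while the SK channel Kcnn2 stood at 165 and Kcnn3 at 79.4. Kcnt1 (SLACK) stood at 252 per kb and Kcnu1, a channel of sperm, at 28.8. Of the non-coding genes Kcnd3os was at 38.6 and Kcnq1ot1, an imprinted transcript with 93.1 kb of annotated exon, at 8.89.

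**Figure D1:**
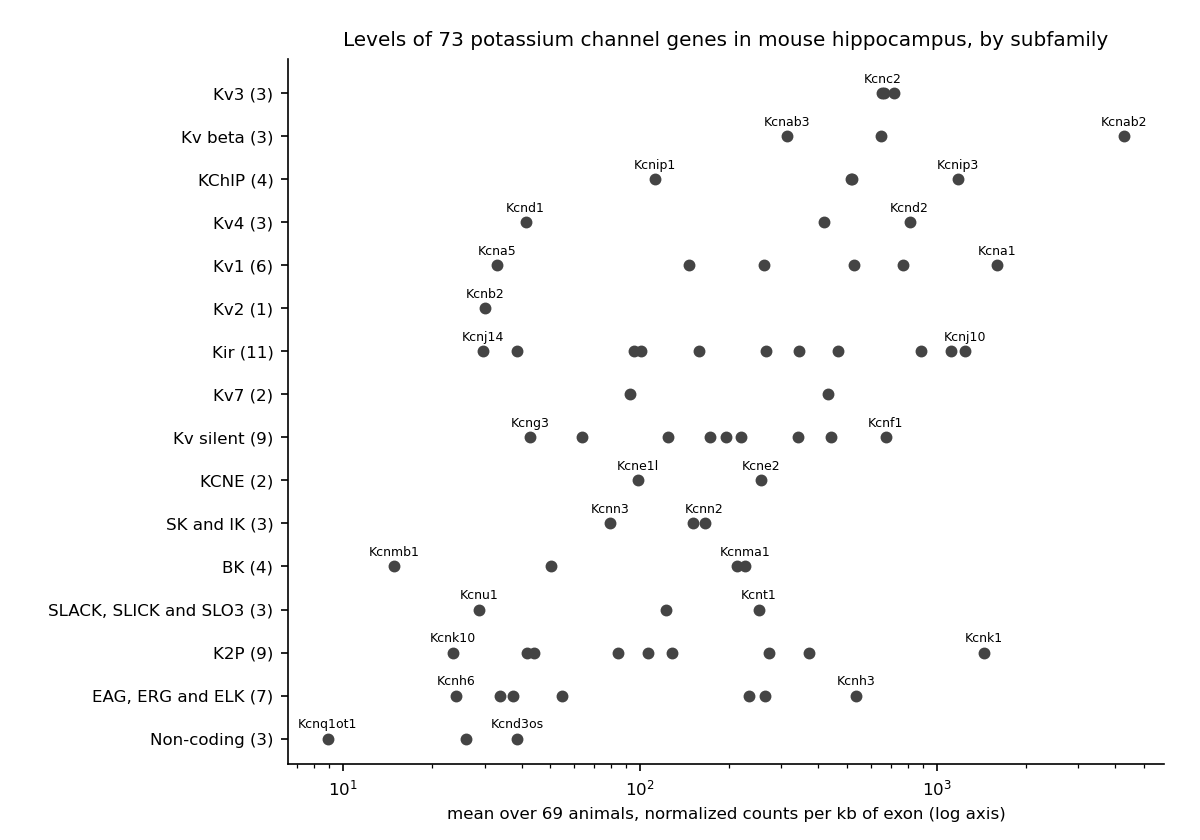
Mean level of 73 of the 77 potassium channel genes by subfamily, in normalized counts per kilobase of exon on a log axis, one point per gene. Kcnab2 lies farthest right at 4287 and Kcnq1ot1 farthest left at 8.89.

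The variation between animals, after group and time were fitted, had a median SD of 0.23 on the log2 scale for these genes and 0.21 for all listed genes. Kcne2 varied most. It ran from 2.24 to 1208 normalized counts between animals, with medians of 360 in TG on TRF, 674 in TG on ALF, 544 in NTG on TRF and 193 in NTG on ALF. The choroid plexus expresses Kcne2. The summed choroid plexus markers ran from 7937 to 296324 in TG on TRF (median 127452) and from 8511 to 267117 in TG on ALF (median 200460). These sums ran from 7135 to 328515 in NTG on TRF (median 157359) and from 7229 to 250973 in NTG on ALF (median 62255). Their part in Kcne2 levels was not tested.

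The first comparison asks which potassium channel genes differed between the 4 times of sacrifice. In all, 22 of 77 genes (28.6%) passed the F test, against 35.6% of all listed genes (limma, Benjamini-Hochberg over 14260 genes, threshold 0.05). The share is below the background. Differences were modest: the ratio of the highest to the lowest fitted time had a median of 1.26 among the 22 (1.18 to 1.68), against 1.21 for all called genes. The fitted level was highest at ZT12 in 9 of the 22 genes, at ZT0 in 8, at ZT6 in 5 and at ZT18 in none. Of all 5073 called genes, 22.5% were highest at ZT12, 30.0% at ZT0, 22.8% at ZT6 and 24.7% at ZT18. The lowest fitted level was at ZT18 in 10 of the 22, against 1176 of all 5073 called genes.

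Genes highest at lights on included channels of glia. Kcnk13 (THIK-1), a two-pore channel known in the brain as the background potassium conductance of microglia, had normalized counts of 233.5 to 503 at ZT0 (median 379), 253 to 418 at ZT6 (median 352), 183 to 361 at ZT12 (median 276) and 275 to 632 at ZT18 (median 340). It was lowest at ZT12, where none of the 23 animals exceeded the ZT0 median and 5 lay below the lowest ZT0 animal (F test adjusted p = 6.81e-07, limma). Kcnj16 (Kir5.1), which forms mixed channels with Kir4.1, had 840 to 1632 at ZT0 (median 1173), 733 to 1475 at ZT6 (median 1072), 677 to 1237 at ZT12 (median 987) and 705 to 1005 at ZT18 (median 821). It was lowest at ZT18, with overlap between all times (adjusted p = 2.98e-06). Kcnj10 had 5619 to 11605 at ZT0 (median 7334), 4632 to 7094 at ZT6 (median 6312), 4232 to 7349 at ZT12 (median 6110) and 5135 to 11719 at ZT18 (median 6236), and 8 of 23 ZT12 animals lay below the lowest ZT0 animal (adjusted p = 3.10e-04).

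Other genes highest at ZT0 were neuronal channel types. The Kv1 subunit Kcna6 had 2231 to 4899 normalized counts at ZT0 (median 3343), 2197 to 3105 at ZT6 (median 2889), 2301 to 3270 at ZT12 (median 2791) and 2794 to 3929 at ZT18 (median 3222). No ZT12 animal exceeded its ZT0 median (adjusted p = 9.63e-05, limma). In the annotation, 39.6% of the Kcna6 exon bases are shared with a gene on the opposite strand, and the strand setting of the counting was not given in the sources used here, so reads of the pair cannot be told apart. The axonal subunit Kcna2 (adjusted p = 0.0184) and the silent subunit Kcng4 (0.0253) were also highest at ZT0, and both missed the threshold without the 5 libraries of low correlation (0.0723 and 0.0756).

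Genes highest at ZT6 or ZT12 had a different membership. Kcnj4 had 1417 to 3054 normalized counts at ZT0 (median 2134), 2326 to 3124 at ZT6 (median 2650), 2112 to 3318 at ZT12 (median 2646) and 1540 to 2492 at ZT18 (median 2044). It was high at ZT6 and ZT12 and low at ZT0 and ZT18, and 20 of 23 ZT12 animals exceeded the ZT0 median (adjusted p = 2.27e-06, limma). The silent subunit Kcng2 had 558 to 1206 at ZT0 (median 873), 876 to 1555 at ZT6 (median 1143), 667 to 1652 at ZT12 (median 1094) and 799 to 1422 at ZT18 (median 1001), with 22 of 23 ZT12 animals above the ZT0 median (adjusted p = 2.44e-05). Kcnip4, a KChIP protein, had 1397 to 2532 at ZT0 (median 1628), 1513 to 2297 at ZT6 (median 1770), 1716 to 2548 at ZT12 (median 2066) and 1710 to 2153 at ZT18 (median 1914). All 23 ZT12 animals exceeded its ZT0 median, although the ranges overlapped (adjusted p = 1.16e-04).

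**Figure D2:**
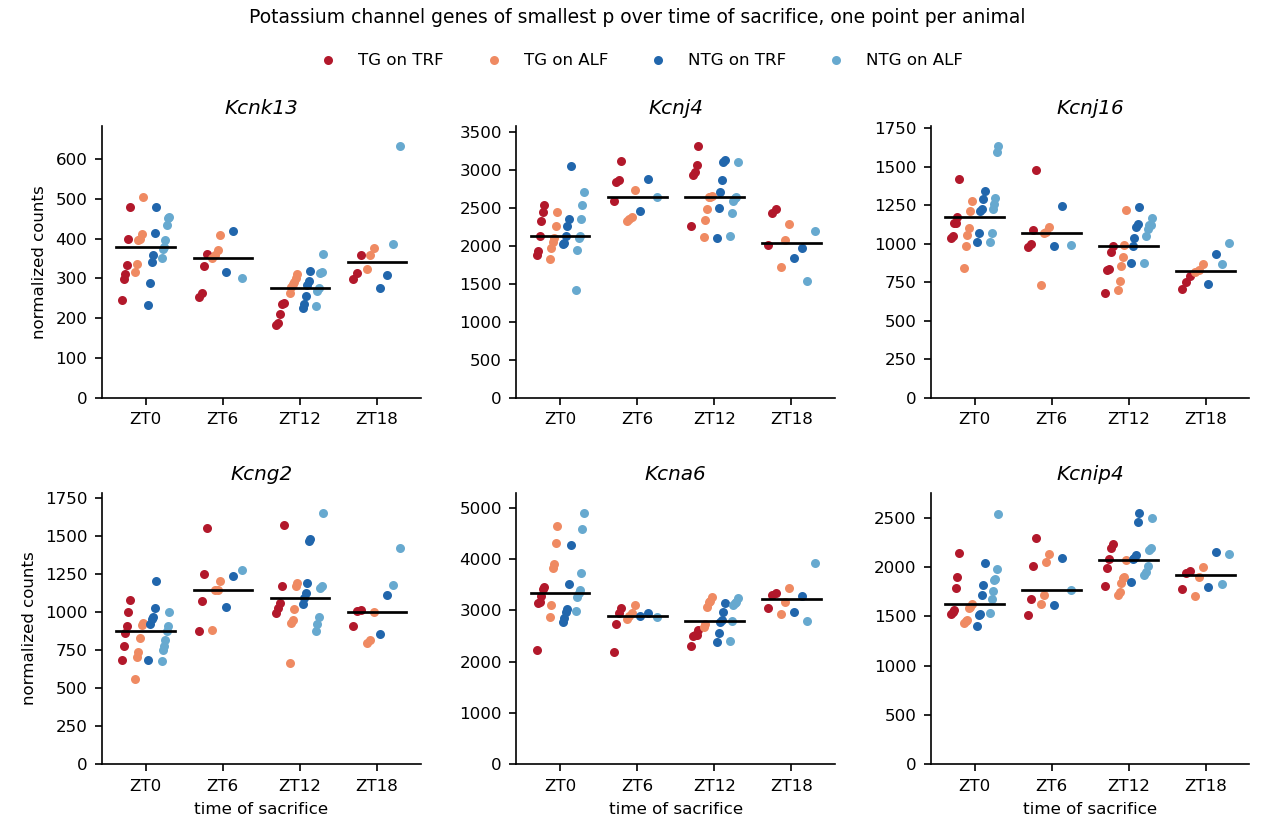
Normalized counts of the 6 potassium channel genes of smallest p in the F test over time, one point per animal coloured by group, with the median of each time as a black line. Kcnk13 has its lowest median at ZT12 (276) and Kcnj4 its highest medians at ZT6 (2650) and ZT12 (2646).

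Low-level members had the widest ratios. Kcna5, a Kv1 subunit, had 43.3 to 135.02 normalized counts at ZT0 (median 75.3) and 72.8 to 267 at ZT12 (median 112), with a fitted ratio of 1.68 between its highest and lowest times (adjusted p = 2.67e-04, limma). Kcnh4, the ELK1 channel, had 54.0 to 173 at ZT0 (median 119) and 116.08 to 269 at ZT12 (median 151), with 10 of 23 ZT12 animals above the highest ZT0 animal (ratio 1.65, adjusted p = 3.09e-04). The remaining genes highest at ZT12 were Kcnk2 (TREK-1, adjusted p = 8.36e-04), Kcnip3 (0.00186), Kcnh3 (0.00535), the silent subunit Kcns1 (0.0101) and Kcnk4 (TRAAK, 0.011). Highest at ZT6 were also Kcnn2 (3.57e-04), Kcnd1 (0.0117), Kcnmb1 (0.0333) and the A-type subunit Kcna4 (0.049).

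By subfamily, 4 of 6 Kv1 genes, 3 of 11 Kir genes, 3 of 9 silent subunits, 3 of 9 two-pore channels, 2 of 4 KChIP genes and 2 of 7 EAG, ERG and ELK genes were called, as was 1 gene in each of 5 further subfamilies, Kv4, BK and SK among them. No Kv beta, Kv3, KCNE, non-coding or SLACK, SLICK and SLO3 gene was called. All ZT6 and ZT18 animals carry numbers of the 300 series, which few ZT0 and ZT12 animals do, so ZT6 and ZT18 against ZT0 and ZT12 cannot be fully told apart from that series. With the number series as a covariate, Kcna2, Kcnip3 (adjusted p = 0.463), Kcnk4, Kcng4 and Kcnmb1 were among the genes that no longer passed.

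The contrast of lights off with lights on rests on the times with the most animals. Of the 77 genes 22 passed, 10 higher and 12 lower at ZT12, against 27.9% of all listed genes, 14.4% higher and 13.6% lower. The members' share was close to the background, and their median log2 difference was −0.01, against 0.00 over all genes. The ZT12 and ZT0 animals overlapped in every member, and the share over all listed genes was not counted. The same genes were not called in full by both tests: 15 passed both, and 7 passed each test alone.

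Voltage-gated channels were called in both directions. Kcna6 fell by 0.28 ± 0.05 (log2 difference ± SE, adjusted p = 3.21e-05, limma, n = 23 and 25). Kcna5 rose by 0.51 ± 0.12 (8.65e-04), and the ELK channels Kcnh4 and Kcnh3 rose by 0.61 ± 0.13 (2.36e-04) and 0.20 ± 0.06 (0.00564). Kcnc4, a Kv3 subunit, fell by 0.13 ± 0.05 (0.0412). Of the 9 silent subunits 5 were called. Kcng2 rose by 0.38 ± 0.07 (3.58e-05) and Kcns1 rose by 0.19 ± 0.06 (0.0168), while Kcns2, Kcng4 and Kcng1 fell by 0.15, 0.37 and 0.18 (0.0179 to 0.032). The KChIP gene Kcnip4 rose by 0.27 ± 0.05 (1.38e-05).

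Among inward rectifiers and two-pore channels, Kcnj10 fell by 0.33 ± 0.06 (adjusted p = 6.53e-05, limma) and Kcnj16 fell by 0.28 ± 0.06 (2.50e-04), while Kcnj4 rose by 0.29 ± 0.05 (4.67e-05). Kcnj10 and Kcnj16 thus differed in the opposite direction to Kcnj4. The other Kir genes were not called and had values of both signs, such as Kcnj6 (−0.16) and Kcnj9 (0.07). Kcnk13 fell by 0.48 ± 0.07, so that its level fell by 28.3% (2.27e-07), which was the smallest p of the 77. Kcnk10 fell by 0.21 ± 0.08 (0.0474), and Kcnk4 and Kcnk6 (TWIK-2) rose by 0.16 ± 0.05 (0.0229) and 0.23 ± 0.09 (0.0457). Of the SK channels Kcnn2 rose by 0.27 ± 0.06 (1.80e-04) and Kcnn3 fell by 0.21 ± 0.08 (0.0383). The non-coding Kcnq1ot1 fell by 0.33 ± 0.13 (0.0472).

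**Figure D3:**
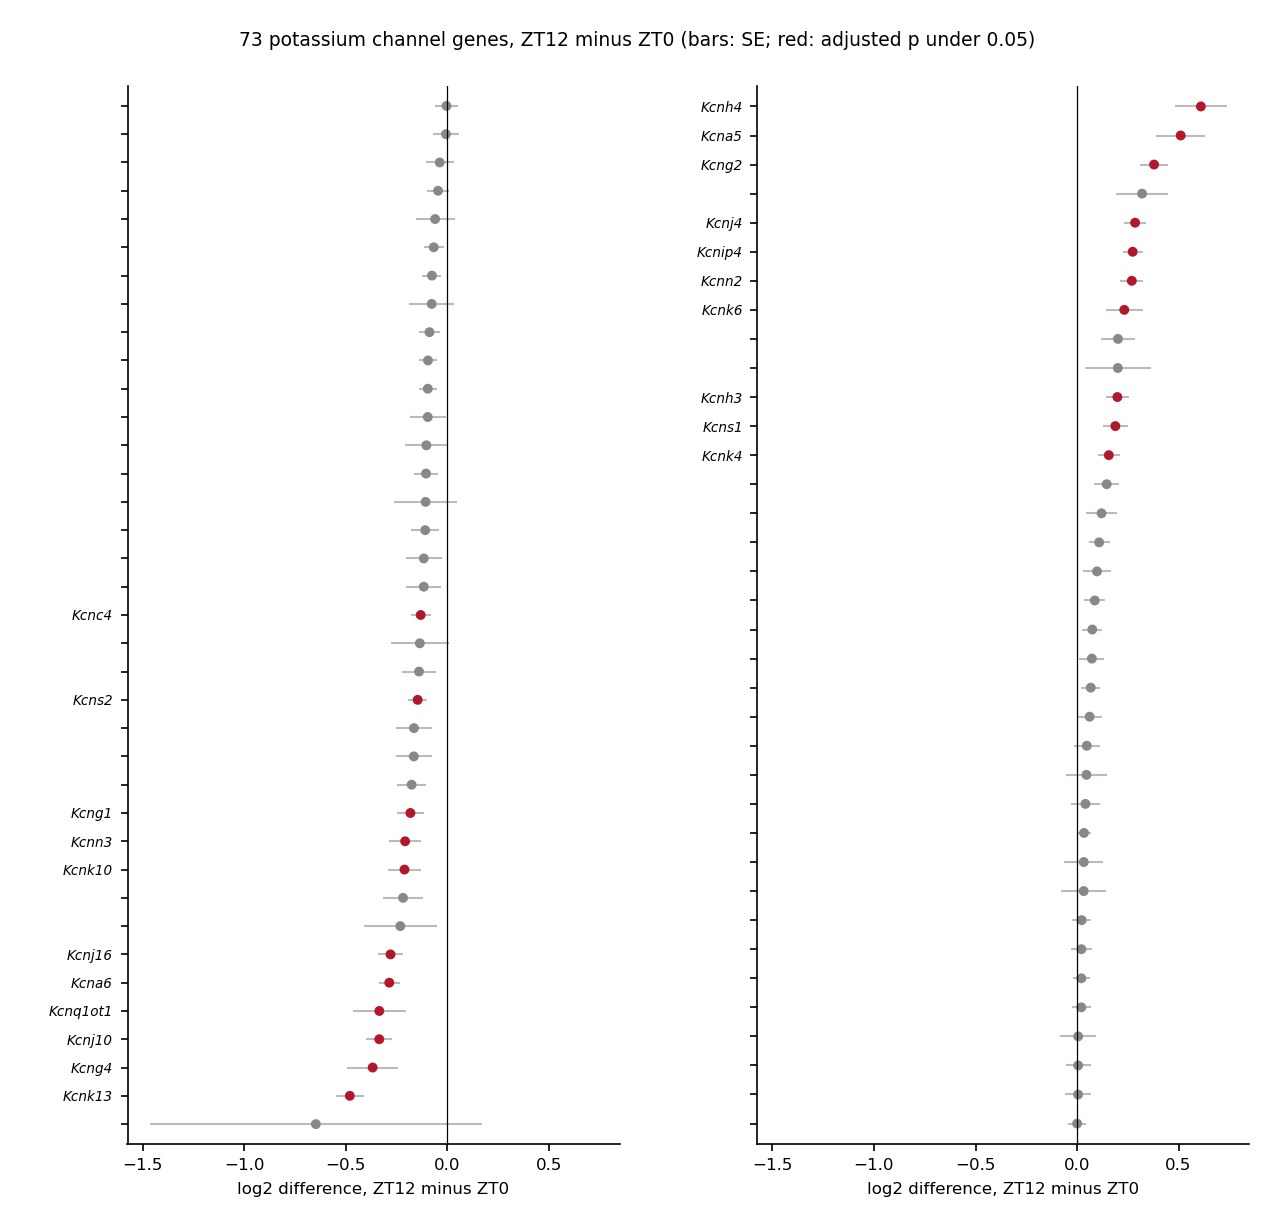
Difference between ZT12 and ZT0 for 73 of the 77 genes on the log2 scale, one point per gene with its SE bar, with called genes in red and named. Kcnh4 (0.61) and Kcna5 (0.51) are the highest called genes and Kcnk13 (−0.48) is the lowest.

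Of the 22 genes, 12 passed under every alternative setting in which they were tested and with each animal left out in turn, among them Kcnk13, Kcnip4, Kcna6, Kcng2, Kcnj4, Kcnj10, Kcnn2, Kcnh4, Kcnj16, Kcna5 and Kcnh3. The other 10 were lost under at least one. Without the 5 libraries of low correlation, 13 of the 77 genes were called, 8 higher and 5 lower. Of these, 12 were among the 22. The share of all listed genes called in that fit is not given here. Of the lost genes, Kcnc4, Kcng4, Kcns1 and Kcnk6 then had adjusted p of 0.0749, 0.0765, 0.0804 and 0.0704 (limma), with log2 differences of −0.13, −0.33, 0.15 and 0.24. The differences of the other 6 shrank further, to −0.09 for Kcns2 (adjusted p = 0.167, limma), 0.10 for Kcnk4 (0.184), −0.10 for Kcng1 (0.288), −0.10 for Kcnk10 (0.423), −0.09 for Kcnn3 (0.434) and −0.12 for Kcnq1ot1 (0.498).

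Some markers of glia were called between the same times. Of 8 microglial markers, Cx3cr1 (−0.35) and Csf1r (−0.20) were lower at ZT12, while others, among them P2ry12 (−0.01), Tmem119 (0.01), Aif1 (−0.07), C1qa (0.03) and C1qb (0.13), did not pass. The summed microglial markers ran from 12742 to 17858 at ZT12 (median 14669) and from 12866 to 18982 at ZT0 (median 15521). Of 8 astrocyte markers 3 were lower at ZT12 (Sox9 −0.46, Aqp4 −0.24, Slc1a2 −0.17), and the sum of the 8 ran from 112244 to 207832 at ZT12 (median 170383) and from 133872 to 266793 at ZT0 (median 188153). Of all listed genes 27.9% were called in this contrast and 13.6% were lower. The part of these markers in the values of Kcnk13, Kcnj10 and Kcnj16 was not tested. In bulk tissue, fewer cells of a type and less RNA per cell cannot be told apart.

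The contrast of ZT18 with ZT6 stays within the 300 number series. Of the 77 genes 4 were lower at ZT18 and none was higher, against 8.04% of all listed genes called (4.27% higher and 3.77% lower). Kcnj4 fell by 0.37 ± 0.08 (adjusted p = 0.00153, limma, n = 10 and 11), Kcnj16 fell by 0.38 ± 0.09 (0.00336), the two-pore channel Kcnk2 fell by 0.32 ± 0.08 (0.00443) and the A-type subunit Kcnd1 fell by 0.42 ± 0.11 (0.00675). Kcnk2 had 1306 to 1717 normalized counts at ZT18 (median 1583), against 1638 to 2239 at ZT6 (median 1961). Only a narrow stretch of these ranges overlapped, and all 4 genes passed with each animal left out.

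Within single groups the ZT12 and ZT0 contrast rests on 5 to 7 animals a side. In TG on TRF 5 of 77 genes passed (background 3.55%), among them Kcnk13 (−0.68 ± 0.14, adjusted p = 0.00184, limma), Kcna5 (0.99 ± 0.26, 0.0162), Kcnj16 (−0.44 ± 0.13, 0.0323) and Kcnj4 (0.40 ± 0.12, 0.0443). Without the libraries of low correlation Kcnj4 did not pass (0.35, adjusted p = 0.0808, limma), and with the myelin covariate neither Kcnj16 (−0.38, 0.0643) nor Kcnj4 (0.38, 0.0581) did. In TG on ALF 2 passed (2.22%), Kcnn2 (0.50 ± 0.11, 0.00871) and Kcnj10 (−0.49 ± 0.13, 0.0264), and neither passed without those libraries (0.31, 0.111 for Kcnn2; −0.35, 0.201 for Kcnj10). In NTG on TRF 1 passed (0.596%), Kcnip4 (0.40 ± 0.10, 0.035), and in NTG on ALF 1 (2.17%), Kcnk13 (−0.47 ± 0.13, 0.0365), which did not pass without those libraries although its difference was −0.45 (0.139). With 1 animal left out these counts ran from 1 to 7, 0 to 5, 0 to 1 and 0 to 2. The share of all listed genes called in those fits is not given here.

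The change of Kcnk13 between these times had one sign in every group. It was −0.68 in TG on TRF, −0.43 in TG on ALF, −0.36 in NTG on TRF and −0.47 in NTG on ALF, on the log2 scale. When the difference of the change itself was tested, by feeding in TG, by feeding in NTG, by genotype on TRF or by genotype on ALF, no member and no other listed gene was called (limma, background 0%), and 1, 1, 0 and 0 members had an unadjusted p under 0.05, against 2.33%, 2.84%, 4.38% and 2.27% of all genes. The smallest unadjusted p was that of Kcnn2 by feeding in TG (−0.37 ± 0.16, unadjusted p = 0.0247, adjusted p = 0.9998). A time change called in one group and not in another is therefore not shown to differ between them.

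The genotype comparison asks whether the transgene altered potassium channel expression. No member passed, against 0.449% of all listed genes (limma, TG minus NTG averaged over feeding). At an unadjusted p under 0.05 there were 11 members, 14.3% of the 77, against 8.11% of all genes. The signs leaned one way: 57 of the 77 values were negative (74.0%), against 48.0% over all genes, with a median log2 difference of −0.04 against 0.00. Members of a subfamily share cells and animals, so this count is a description. The lists of channel partners and calcium channels, given below, leaned the same way. It was 58 with libraries centred on their medians and 59 after quantile normalization.

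All members of Kv3, Kv7, SK, Kv beta and KChIP had negative values under each scaling, none of them called, and so did all 3 Kv4 genes except after quantile normalization (2 of 3). Each of these sets holds only 3 or 4 genes, and 57 of all 77 values were negative in the main fit. In BK 1 of 4 was negative, and 2 after quantile normalization. The smallest p belonged to the inward rectifier Kcnj16, with 677 to 1475 normalized counts in TG on TRF (median 991), 697 to 1276 in TG on ALF (median 981), 736 to 1343 in NTG on TRF (median 1089) and 865 to 1632 in NTG on ALF (median 1108). The groups overlapped over most of their range, and 27 of 37 TG animals lay below the NTG median. Its log2 difference was −0.18 ± 0.05 (adjusted p = 0.0795, limma), and it passed with the myelin level as a covariate (0.0479) or when any one of TG_ALF_19, TG_TRF_7 or TG_TRF_315 was left out. The difference was −0.16 without NTG_ALF_107 and NTG_ALF_1 (adjusted p = 0.185, limma), without the 5 libraries of low correlation (0.192) and with the choroid plexus covariate (0.153). By time, the TG median was the lower at ZT0, ZT12 and ZT18. At ZT6 it was the higher (1075 against 993, n = 8 and 3).

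The next genes by p included the two-pore channel Kcnk3 (TASK-1), the silent subunit Kcng4 and the Kv3 subunit Kcnc1. Kcnk3 had 324 to 606 normalized counts in TG on TRF (median 490), 347 to 666 in TG on ALF (median 461), 360 to 741 in NTG on TRF (median 542) and 385 to 815 in NTG on ALF (median 512). Kcng4 had 106.9 to 371 in TG on TRF (median 197), 122.01 to 428 in TG on ALF (median 220), 77.2 to 336 in NTG on TRF (median 238) and 195 to 1181 in NTG on ALF (median 273). In both genes 31 of 37 TG animals lay below the NTG median, and all groups overlapped. The log2 differences were −0.17 ± 0.06 for Kcnk3 (adjusted p = 0.282, limma), −0.31 ± 0.11 for Kcng4 (0.290) and −0.09 ± 0.04 for Kcnc1 (0.452). By time, Kcng4 medians were 271 (ZT0), 195 (ZT6), 225 (ZT12) and 176 (ZT18), and Kcnk3 medians were 525, 502, 497 and 461 in the same order.

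**Figure D4:**
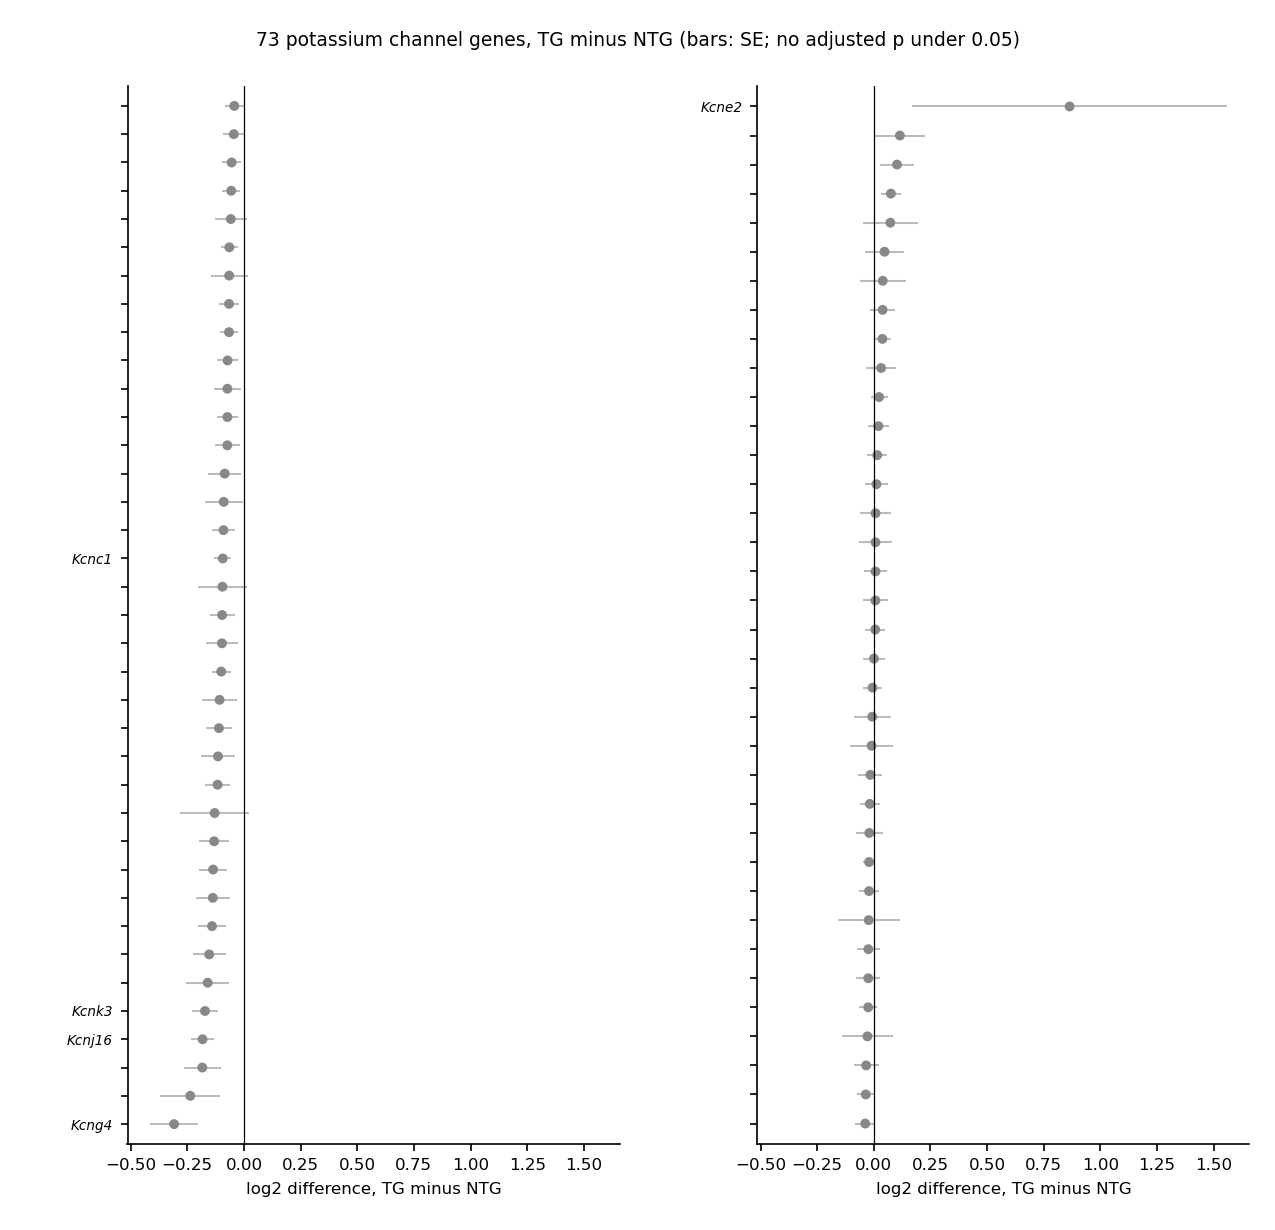
Difference between TG and NTG animals, averaged over feeding, for 73 of the 77 genes on the log2 scale, one point per gene with its SE bar. No gene is called, most values lie below 0, and Kcne2 (0.86) has the widest bar.

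Astrocyte, microglial and choroid plexus markers each had values of one sign between the genotypes, and most of them were not called. Of the 8 astrocyte markers all had negative values and 2 were lower in TG, with sums of 112244 to 230775 in TG (median 162580) and 152155 to 266793 in NTG (median 187247), and their part in Kcnj16 was not tested. The 8 microglial markers all had positive values and none was called, and their sums ran from 13023 to 18982 in TG (median 15708) and from 12742 to 18130 in NTG (median 14430). Kcne2 had a log2 difference of 0.86 ± 0.70 (adjusted p = 0.786, limma), and all 11 choroid plexus markers had positive values with none called.

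Split by feeding, no member passed on TRF (background 0.133%) or on ALF (0.189%), and the values were negative in 53 and 59 of the 77. On TRF the smallest p belonged to Kcnj10 (−0.17 ± 0.08), Kcnc1 (−0.11 ± 0.05), Kcnj11, the pore of the ATP-sensitive channel (0.11 ± 0.05), Kcnj16 (−0.13 ± 0.07) and Kcnh5 (−0.22 ± 0.12), all with adjusted p of 0.709 or more (limma). On ALF they included those of Kcnj16 (−0.23 ± 0.07, adjusted p = 0.275), Kcnip4 (−0.18 ± 0.06, 0.322), Kcng4 (−0.44 ± 0.15, 0.372) and Kcnk3 (−0.19 ± 0.08, 0.603). Animal NTG_ALF_325 had 1181 normalized counts of Kcng4, against 468 in the next NTG on ALF animal, and without it the Kcng4 difference was −0.28 (adjusted p = 0.611). With no adjustment, 3 members on TRF and 7 on ALF had a p under 0.05, against 6.94% and 7.3% of all genes.

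At single times, too, no member passed. None was called for genotype at ZT12 (background 0.154%) or at ZT0 (0.112%). With no adjustment, 16 members at ZT12 and 4 at ZT0 had a p under 0.05 (limma). The share over all genes was not counted for these. At ZT12 the 5 of smallest p were Kcnj16 (−0.29 ± 0.09, adjusted p = 0.261, limma), the ERG channel Kcnh7 (−0.65 ± 0.23), Kcnc1 (−0.18 ± 0.07), the SLICK channel Kcnt2 (−0.24 ± 0.09) and the Kir2 channel Kcnj2 (−0.29 ± 0.12). At ZT0 they were Kcnk3 (−0.33 ± 0.09, adjusted p = 0.330), Kcnf1 (−0.16 ± 0.08), Kcng4 (−0.33 ± 0.16), Kcns1 (−0.17 ± 0.08) and Kcnj16 (−0.15 ± 0.08).

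The feeding comparison asks what 6 h of food access did. The two-pore channel gene Kcnk13 and the Kv1 gene Kcna6 were lower on TRF and no member was higher. That is 2 of 77, against 1.68% of all listed genes (0.975% lower, 0.701% higher). The members' median was −0.02 on the log2 scale, against 0.00 over all genes, and 43 of 77 values were negative. With 15 members at an unadjusted p under 0.05 (19.5% against 18% of all genes), the members were close to the background.

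Kcnk13 had 183 to 479 normalized counts in TG on TRF (median 299), 263 to 503 in TG on ALF (median 352), 226 to 480 in NTG on TRF (median 301.4) and 231 to 632 in NTG on ALF (median 368). The groups overlapped, and 27 of 34 TRF animals lay below the ALF median. By time the TRF and ALF medians were 337 and 396 at ZT0, 323.2 and 359 at ZT6, 236 and 288 at ZT12, and 308.4 and 375 at ZT18, so the TRF median was the lower at all 4 times. The log2 difference was −0.25 ± 0.06 (adjusted p = 0.0132, limma, n = 34 and 35). It passed with each animal left out and without the 5 libraries of low correlation (0.0451), but not with no term for time (0.112) or on ZT0 and ZT12 animals only (0.074). With the myelin level as a covariate the Kcnk13 difference shrank to −0.19 and still passed (adjusted p = 0.0455, limma). None of the 8 microglial markers was called for feeding, and their sums ran from 12742 to 18130 on TRF (median 14655) and from 12845 to 18982 on ALF (median 15132).

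Kcna6 had 2197 to 3459 normalized counts in TG on TRF (median 2994), 2671 to 4642 in TG on ALF (median 3110), 2389 to 4283 in NTG on TRF (median 2952) and 2397 to 4899 in NTG on ALF (median 3199). Again the groups overlapped, and 25 of 34 TRF animals lay below the ALF median. The TRF and ALF medians were 3153 and 3727 at ZT0, 2914 and 2889 at ZT6, 2567 and 3130 at ZT12, and 3280 and 3163 at ZT18, so TRF was the lower at ZT0 and ZT12 only. Its log2 difference of −0.16 ± 0.04 (adjusted p = 0.0426, limma) did not pass in 26 of 69 fits with one animal left out, nor without the 5 libraries of low correlation (−0.10, 0.277) or without NTG_ALF_107 and NTG_ALF_1 (−0.13, 0.116). Of 8 myelin markers 2 were lower on TRF, and Kcna6 had a difference of −0.13 (adjusted p = 0.0962) once the myelin level was added to the fit.

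**Figure D5:**
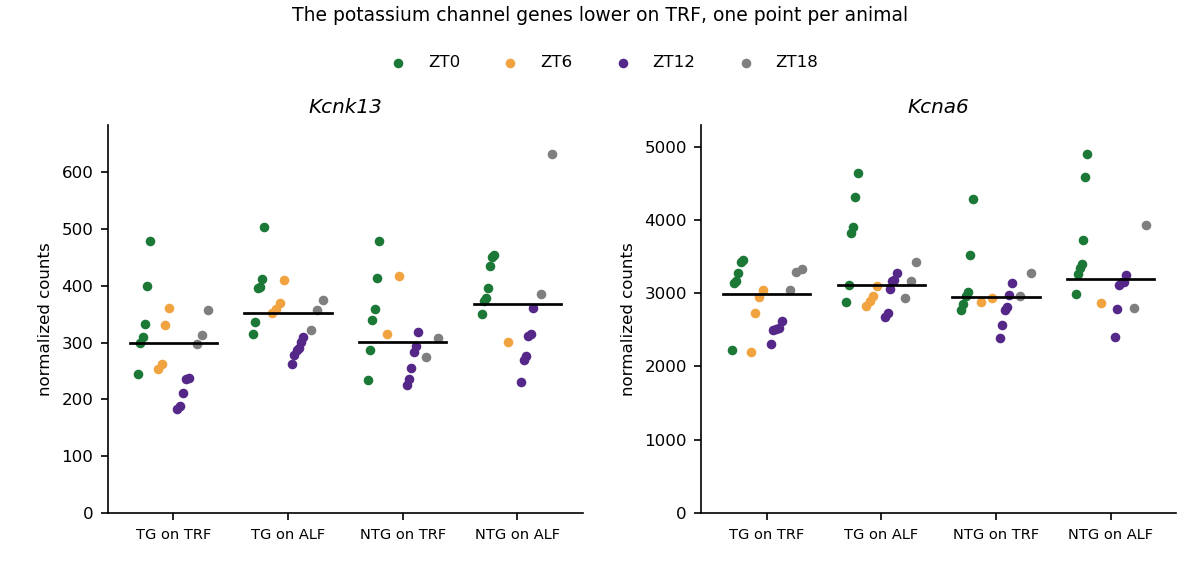
Normalized counts of Kcnk13 and Kcna6 in the 4 groups, one point per animal coloured by time of sacrifice, with group medians as lines. The Kcnk13 medians are 299 and 301.4 in the TRF groups, against 352 and 368 in the ALF groups.

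The next genes by p did not pass. Kcnmb1 had 29.4 to 101.3 normalized counts in TG on TRF (median 56.1), 24.6 to 116.9 in TG on ALF (median 69.8), 17.01 to 101.5 in NTG on TRF (median 50.1) and 35.7 to 96.6 in NTG on ALF (median 60.6), and its log2 difference was −0.37 ± 0.12 (adjusted p = 0.0813, limma). Kcns1 had a difference of 0.15 ± 0.05 (0.104), and Kcnmb4, the neuronal BK subunit, one of 0.12 ± 0.04 (0.116).

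Within genotypes no member passed. In TG (background 0.54%) the 5 of smallest p were Kcnk13 (−0.29 ± 0.08, adjusted p = 0.0634, limma), Kcnj11 (0.17 ± 0.05, 0.0801), Kcnmb4 (0.19 ± 0.06, 0.0974), Kcna6 (−0.19 ± 0.06, 0.0978) and the EAG channel Kcnh1 (−0.15 ± 0.05, 0.119). In NTG (0.0281%) they included Kcng4 (−0.42 ± 0.15, adjusted p = 0.443), Kcnk13 (−0.22 ± 0.09, 0.479), Kcns1 (0.16 ± 0.08) and Kcng1 (−0.17 ± 0.08). Without NTG_ALF_325 the Kcng4 value was −0.26 (0.631), and without the 5 libraries that of Kcng1 was −0.09 (0.868). The difference between genotypes in the feeding effect called no member and no other listed gene (0%), with 2 members and 745 genes (5.22%) below 0.05 before adjustment. Among the leading genes by p were Kcnj11 (0.17 ± 0.07, adjusted p = 0.937), the GIRK channel Kcnj9 (0.19 ± 0.08), Kcnip4 (0.16 ± 0.08) and Kcnd1 (−0.20 ± 0.12).

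At single times, feeding called no member at ZT12 (background 0.00701%) or ZT0 (0.0491%). At ZT12 the smallest p were those of Kcnk13 (−0.29 ± 0.10, adjusted p = 0.661, limma), Kcnj11 (0.16 ± 0.06), Kcna6 (−0.18 ± 0.08), Kcnk6 (0.28 ± 0.12) and Kcnh1 (−0.14 ± 0.07). At ZT0 they were those of the KChIP gene Kcnip2 (0.29 ± 0.09, adjusted p = 0.125), Kcna6 (−0.24 ± 0.08), Kcnn2 (0.21 ± 0.08), Kcnab1 (0.11 ± 0.04) and Kcnk1 (−0.15 ± 0.06).

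The most abundant members of the largest subfamilies passed neither the genotype nor the feeding test. Kcnk1 had medians of 3169 normalized counts in TG on TRF, 3188 in TG on ALF, 3238 in NTG on TRF and 3296 in NTG on ALF, within an overall range of 2373 to 3914. Kcnf1, a silent partner of Kv2 channels, had medians of 3302, 3049, 3136 and 3334 in the same 4 groups, within 1904 to 4300. Kcnj10 had 4232 to 8135 in TG on TRF (median 6004), 5237 to 10229 in TG on ALF (median 6708), 5518 to 8515 in NTG on TRF (median 6830) and 5252 to 11719 in NTG on ALF (median 6803). By time, Kcnk1 medians were 3207 (ZT0), 3038 (ZT6), 3207 (ZT12) and 3279 (ZT18), and Kcnf1 medians 3455, 3096, 3166 and 3052, and neither gene passed the F test over time. Medians of the time-varying genes across the 4 groups, in the order TG on TRF, TG on ALF, NTG on TRF and NTG on ALF, were 2517, 2326, 2410 and 2397 for Kcnj4, 1009, 927, 1074 and 944 for Kcng2, and 1915, 1716, 1943 and 1936 for Kcnip4.

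Genes that work with potassium channels were counted from 3 fixed lists. Of 33 listed channel partners and HCN pacemaker channels, 10 passed between ZT12 and ZT0, 3 higher and 7 lower, as did 3 of 12 sodium channel genes and 7 of 22 calcium channel genes. All 3 counts lie near the background of 27.9% (14.4% higher and 13.6% lower). The partners were Lrrc26, a BK gamma subunit (−0.53), Kctd12b (−0.27), Cntn2, which anchors Kv1 channels at axons (−0.25), Ank3 (−0.21), Adam22 (−0.16), Kctd12 (−0.10), Amigo1, a Kv2 partner (−0.10), Calm2, a calmodulin gene (0.20), Caml (0.12) and Vapa (0.07). The sodium channel genes included the beta subunits Scn2b (−0.20) and Scn3b (−0.11). The calcium channel genes were 1 higher (Cacnb2, 0.10) and 6 lower, namely Cacng4 (−0.33), the L-type pore Cacna1c (−0.26), Cacna1i (−0.23), Cacna1e (−0.21), Cacng2 (−0.16) and Cacnb3 (−0.10).

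In the F test over time 13 of 33, 3 of 12 and 7 of 22 genes of these lists were called, near the background of 35.6%. Between ZT18 and ZT6 the partners Lingo1 (−0.39), Tmem175 (−0.24), Lgi1 (−0.21) and Lrrc26 (0.58) and the sodium channel Scn7a (−0.40) passed, and no calcium channel gene did (background 8.04%). None of the 3 lists had a called gene for genotype or for feeding. For genotype, 7 of the 33 partner values, 5 of the 12 sodium channel values and 1 of the 22 calcium channel values were positive, on the log2 scale of TG minus NTG. Among the members 20 of 77 were positive, and over all listed genes 48.0% of these values were negative. The lean to negative values was thus seen in the partner and calcium channel lists as well as in the members.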

How the data were processed

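Poly-A libraries of hippocampal RNA were read on a NovaSeq 6000 (paired ends, 150 bases) and trimmed with Trimmomatic, per the labels' protocols. HISAT2, featureCounts, DESeq2 and the build GRCm38 are named in the submitters' processing notes, and the strand setting is not given in the sources used here. The deposited values are a normalized signal, which the authors made by dividing each gene's read count by 1 factor per library. The text calls it a normalized count. The 70 libraries were read as 69 animals, since a second library with the number of NTG_TRF_232 and an added R (ZT12) was averaged with it, a reading the labels do not settle.

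The log2 of each normalized count, after adding 1, was fitted with limma 3.58.1 (R 4.3.3; variance trend, robust variances) on all 14260 genes, 2-sided, with Benjamini-Hochberg adjustment over all of them and a threshold of 0.05. The fit was tested on simulated data. Adding 1 understates the fold changes of low genes. Genotype, feeding and time were tested in a model of 4 group means and time, and changes within groups in a model of 16 group and time means. Values by animal are given as the lowest, median and highest. Exon lengths and overlaps came from GENCODE M21 and promoters from RefSeq, both of the mouse build named above. All 77 symbols were found in both. Exon overlap above 5% with another gene held for 15 members, the highest being Kcna6 (39.6%), Kcnmb4os2 (34.2%), Kcnmb4 (31.5%) and Kcnj3 (31.1%), and their counts can hold reads of the other gene.

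Named in the text are the called members of each time comparison, the called members or the 5 of smallest p in each genotype and feeding comparison, and the highest and lowest member per kilobase of each subfamily. Levels are shown for the leading genes of each. A few genes that this rule names are not reported here and not drawn, but stay in all fits and counts. Members and gene lists were chosen with earlier results of these data known. Alternatives covered the pseudocount, a filter on low genes, scaling, variance model, library weights, 3 covariates, left-out libraries and each animal left out. Of these, voom weights, leaving out NTG_ALF_107 and NTG_ALF_1, and a fit on ZT6 and ZT18 animals only were chosen after seeing the data.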

Additional observations from a re-analysis of the deposited data

Results flagged for a closer look

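For 12 genes whose levels are given by group and time, each group at each time with 4 to 10 animals was searched for an animal far from the others. Of 120 such sets, 8 held one, and chance alone flags about 1 in 20. Kcnj4, the Kir2.3 channel, was 3054 normalized counts in 1 NTG on TRF animal at ZT0, against 2357 in the next, and 2743 in 1 TG on ALF animal at ZT6, against 2382. That second animal also had 733 normalized counts of Kcnj16 at ZT6, against 1072 in its nearest neighbour. Kcnj16 was 1417 in 1 TG on TRF animal at ZT0, against 1173. Kcna6 was 2231 in 1 TG on TRF animal at ZT0, against 3139. The silent subunit Kcng4 was 468 in 1 NTG on ALF animal at ZT0, against 340, and 371 in 1 TG on TRF animal at ZT0, against 225. Kcnk1 was 2787 in 1 TG on ALF animal at ZT12, against 3124 in the nearest.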

How the results depend on the processing

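Counts of called members, by limma, are given for each setting that moved them by more than 1.5 times. Between ZT12 and ZT0 (22 called), 13 passed without the 5 libraries of low correlation. Between ZT18 and ZT6 (4), 7 passed after quantile normalization and 11 with array weights. For genotype over both feedings (0), 1 passed with the myelin covariate, at ZT12 (0) 1 with array weights, and at ZT0 (0) 1 without the 5 libraries. For feeding over both genotypes (2), 1 passed with centred libraries, array weights, the myelin covariate, without the 5 libraries or without NTG_ALF_107 and NTG_ALF_1, and 0 with no term for time or on ZT0 and ZT12 animals only. For feeding in TG (0), 5 passed with array weights and 2 without NTG_ALF_107 and NTG_ALF_1. Between ZT12 and ZT0 in TG on TRF (5), 10 passed with array weights and 3 with centred libraries, without the variance trend, without the 5 libraries or on ZT0 and ZT12 animals only. In TG on ALF (2), 6 passed with array weights, 5 with the myelin covariate or without NTG_ALF_107 and NTG_ALF_1, and 0 without the 5 libraries. In NTG on TRF (1), 0 passed with centred libraries. In NTG on ALF (1), 0 passed with array weights, with voom weights, without the 5 libraries, without NTG_ALF_107 and NTG_ALF_1, or on ZT0 and ZT12 animals only. The share of all listed genes called in each setting is not given here. These counts therefore do not show how the members compare with the background. The causes were not tested.

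With each of 69 animals left out in turn, the counts ran from 20 to 28 in the F test over time, 16 to 27 between ZT12 and ZT0, 4 to 5 between ZT18 and ZT6, 0 to 1 for genotype, 1 to 3 for feeding and 0 to 2 for feeding in TG. Within groups they ran from 1 to 7 in TG on TRF, 0 to 5 in TG on ALF, 0 to 1 in NTG on TRF and 0 to 2 in NTG on ALF. They stayed at 0 in the other comparisons run. The share of all listed genes called in these fits is not given here. The ranges therefore do not compare the members with the background. In TG on TRF 1 was called without TG_TRF_121, 2 without TG_TRF_321 or TG_TRF_104, and 3 without TG_TRF_126, TG_TRF_24, TG_TRF_102 or TG_TRF_7. In TG on ALF 5 were called without TG_ALF_127, 4 without TG_ALF_234 or TG_ALF_109, 1 without TG_ALF_125, TG_ALF_5, TG_ALF_115 or TG_ALF_117, and 0 without TG_ALF_16. In NTG on TRF 0 were called without NTG_TRF_8, NTG_TRF_142, NTG_TRF_116, NTG_TRF_32 or NTG_TRF_233. In NTG on ALF 0 were called without NTG_ALF_1, NTG_ALF_3, NTG_ALF_135, NTG_ALF_107, NTG_ALF_106, NTG_ALF_26 or NTG_ALF_322 and 2 without NTG_ALF_136 or NTG_ALF_120. For feeding in TG, 2 were called without TG_TRF_24, and 1 without TG_TRF_129, TG_TRF_102, TG_ALF_125, TG_ALF_234, NTG_TRF_118, NTG_ALF_1 or NTG_ALF_325. For the named genes, 7321 fits with another setting or an animal left out gave the same direction and call, 350 lost the call, 21 gained it and none reversed. No paired analysis was possible because each animal has its own number and the groups share none.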
